A study of Mus musculus with 22 samples.

Results

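The mRNA response to Msi2 induction was measured in cultured neural stem cells (NSCs) from the cortex of E12.5 mouse embryos. The members are the RNA-Seq libraries labelled MSI2 without and with doxycycline (Dox), chosen by their labels, with the pair of KH2 control libraries as the background for Dox itself. These 4 libraries are among 22 samples of the series, 14 of which are RNA-Seq libraries. The tetO-Msi2 cells carry an Msi2 cDNA under a Dox-responsive promoter at the Col1a1 locus together with the transactivator R26-m2rTTA, and the KH2 control cells carry R26-m2rTTA but no Musashi cDNA. Dox was given at 1 µg/ml, with a labelled time point of 72 h (part of the study's text gives a shorter induction), and the untreated libraries of both lines had no Dox. Cells of both lines came from 129SvJae mice and were grown in N2 medium with growth factors and laminin, and littermate embryos were used where possible. Each condition is 1 library from 1 line, so a difference between the lines cannot be told apart from a difference between embryos. The tetO-Msi1 line, which carries Msi1 in place of Msi2 and was treated at E12.5 and E13.5, supplied the spread for the test and is shown beside the other pairs. Directions are also given for the Msi1/Msi2 floxed lines C4, which carries Cre, and C1, which does not. Both came from E12.5 embryos and were treated with tamoxifen, with a labelled time point shorter than 72 h. Gene values are read counts and RPKM (reads per kilobase of counted sequence, scaled to the reads of the library), on 13666388 and 16719580 counted reads in tetO-Msi2 cells without and with Dox and 12901123 and 22248145 in KH2 cells.

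Musashi proteins are RNA-binding proteins of stem and progenitor cells that attach to UAG-containing sites in mRNAs, mostly in 3′ UTRs, and act on translation, stability and splicing. MSI1 and MSI2 are close paralogs with very similar RNA-recognition domains, and both are made in the radial glia of the embryonic cortex, where they are associated with the undifferentiated state. The measurements here are of poly(A) mRNA and say nothing of protein made from it.

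The induced gene was the most changed of all genes tested by its p-value. Msi2 (ENSMUSG00000069769, chr11:88152884-88579827, minus strand, build NCBIM37) was at 23.2 RPKM without and 128 RPKM with Dox in tetO-Msi2 cells, on 232 and 1525 reads. In KH2 cells it was at 29.9 without and 31.5 RPKM with Dox, so that only the induced library stood apart from the others of both pairs. The rise in tetO-Msi2 cells was 5.41-fold (log2 change 2.44, SE 0.25, adjusted p = 1.37e-17), by edgeR's quasi-likelihood test with Benjamini-Hochberg adjustment, which gave every adjusted p below. The log2 change in KH2 cells was 0.12, and the 2 responses differed by 2.32 (SE 0.35, adjusted p = 6.57e-07). The counted sequence of the gene is 112 nt long in the files, and reads of the endogenous gene and of the cDNA were not separated. Its paralog Msi1 was at 10.3 and 12.3 RPKM in tetO-Msi2 cells and at 20.5 and 19.8 RPKM in KH2 cells, a log2 change of 0.22 in tetO-Msi2 cells that did not pass the test (adjusted p = 1). Col1a1, the locus that holds the cDNA, was at 0.337 and 0.333 RPKM in tetO-Msi2 cells and at 0.338 and 0.269 RPKM in KH2 cells.

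The libraries had the marker genes of neural stem cells. Summed over 15 stem and radial glia markers they held 2372 and 2349 RPKM in tetO-Msi2 cells and 2965 and 2611 RPKM in KH2 cells. Sox2, a transcription factor of neural progenitors, was at 161 and 166 RPKM in tetO-Msi2 cells, and the intermediate filament gene Nes at 36.1 and 38.3 RPKM. Markers of microglia, endothelium, pericytes and meningeal fibroblasts summed to 14.4 and 13.1 RPKM over 24 genes in tetO-Msi2 cells and to 15.0 and 16.6 RPKM in KH2 cells, with 13 to 14 and 10 to 12 of them without a read, and most of the sum was Cspg4, which glial progenitors also express. Cx3cr1, Csf1r, C1qa, Cdh5, Cldn5, Dcn and Lum had no read in any of the 4 libraries. Some genes had reads in 1 pair and almost none in the other. The Y-linked Eif2s3y was at 24.1 and 24.3 RPKM in tetO-Msi2 cells and at 0.0339 and 0.0387 RPKM in KH2 cells. Ddx3y, also Y-linked, was at 13.7 and 11.3 RPKM in tetO-Msi2 cells and at 0.00932 and 0.0160 RPKM in KH2 cells. Where the lines are compared, a difference tied to the Y chromosome thus cannot be told apart from one tied to the cDNA. Counting Eif2s3y, 5 genes, among them Rpl3, Rpl30 and Rps3a, were over 20 RPKM in both tetO-Msi2 libraries and under 1 in both KH2 libraries. Such gaps did not follow the line. In untreated tetO-Msi1 cells Eif2s3y was at 21.8 RPKM at E12.5 and 0 at E13.5, and Rpl30 at 0.0627 and 413 RPKM. These genes were picked out after their values were seen, and whether embryos or the assignment of reads play a part was not tested.

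Sites of the Musashi pentamers ATAGT and GTAGT in the 3′ UTRs of Msi2 itself and of genes that moved with it are shown here, because they are the letters that the analysis of motif density at the end counted. Each is read 5′ to 3′ on the strand of the transcript from the mouse genome NCBIM37 with the longest 3′ UTR of each gene in GENCODE M1, and the capitals mark the pentamer.
Msi2: caatcacatttgGTAGTgatttttgactt
Atf5: gtgtttttgcagGTAGTcctagttgggtg
Car2: ggtaaaacagtcATAGTtttgtgattata
Fos: acctgagagctgGTAGTtagtagagcatg
Cav1: aaagcccttgcaATAGTctgcaatgctgt
Gucy1a3: acttttgggggcATAGTtgtgttctagaa
Pdgfra: aaccaaccgtgaGTAGTaggtttgggtct
The sites lie at chr11:88157851-88157879 (minus strand) for Msi2, chr7:52067950-52067978 (minus) for Atf5, chr3:14900489-14900517 (plus) for Car2, chr12:86817673-86817701 (plus) for Fos, chr6:17290598-17290626 (plus) for Cav1, chr3:81898375-81898403 (minus) for Gucy1a3 and chr5:75591709-75591737 (plus) for Pdgfra. The Msi2 3′ UTR holds 8 such pentamers in 5310 nt and that of Gucy1a3 6 in 2267 nt, whereas those of Atf5, Car2, Fos and Cav1 hold 2 each and that of Pdgfra 3. Such pentamers are common: 7378 of the 11327 tested genes with a 3′ UTR (65.1%) have at least 1, so their presence in a gene is a description of its sequence only.

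Few mRNAs passed the test with Msi2 induction. Of 12167 genes tested, 35 (0.288%) passed an adjusted p of 0.05 in tetO-Msi2 cells, 19 higher (0.156%) and 16 lower (0.132%), whereas 3 (0.0247%) did so in KH2 cells, all higher. The response itself differed between the lines for 7 genes (0.0575%), 5 higher (0.0411%) and 2 lower (0.0164%) in tetO-Msi2 cells. Of the 35 genes, 6 passed this test of the difference (Msi2, Cav1, Gucy1a3, Fos, Egr1 and Ier2) and 29 did not, so for most of them a larger change than in KH2 cells was not shown. At an unadjusted p under 0.05 the counts were 631 (5.19%) in tetO-Msi2 cells, 334 higher (2.75%) and 297 lower (2.44%), 134 (1.1%) in KH2 cells and 274 (2.25%) for the difference, and the counts at an unadjusted p given for gene lists are to be read against these shares. With 1 library per condition the spread in this test came from the only repeated response, that of tetO-Msi1 cells at 2 stages. This repeat left 1 residual degree of freedom, and the p-values assume that the other lines vary alike. The fit gave infinite prior degrees of freedom, so a gene's own spread did not enter its p-value. Genes were thus also assumed to vary alike. With E12.5 libraries only, the KH2 and tetO-Msi1 pairs were given 1 shared Dox effect, and the spread came from the gap between their responses. In that fit 85 genes were called in tetO-Msi2 cells (44 higher and 41 lower). The shared effect had 33 calls (17 higher and 16 lower), which are not those of KH2 cells alone. DESeq2 on the same 8 libraries called 2 genes in tetO-Msi2 cells, Msi2 and Cav1, none in KH2 cells (11 at an unadjusted p under 0.05) and none for the difference (44 at an unadjusted p under 0.05).

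**Figure D1:**
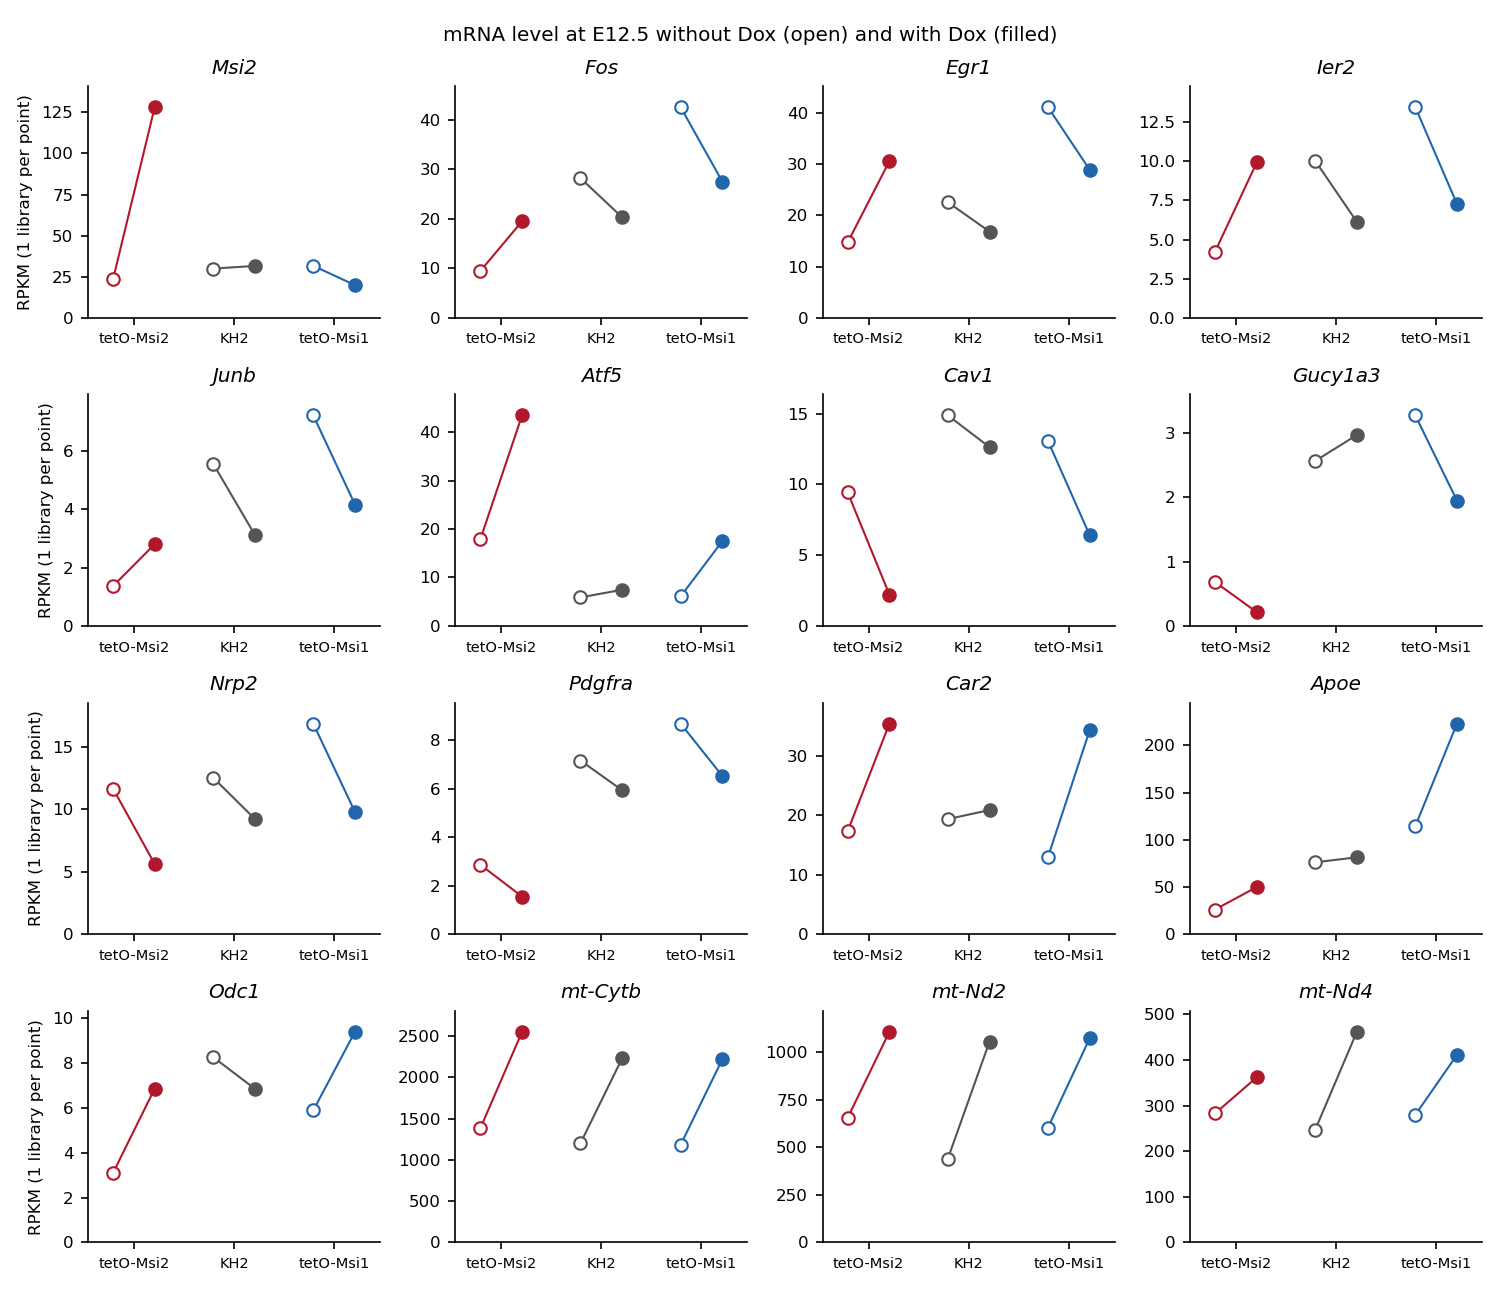
Level of 16 mRNAs (RPKM, linear axes from 0) in the tetO-Msi2 (red), KH2 (grey) and tetO-Msi1 (blue) pairs at E12.5, with open points for the library without Dox and filled points for the library with Dox, and no error bar because each point is 1 library. Msi2 rose from 23.2 to 128 RPKM in tetO-Msi2 cells only, Fos, Egr1, Ier2 and Junb were higher with Dox in tetO-Msi2 and lower in both other lines, and mt-Cytb and mt-Nd2 were higher with Dox in all 3 lines.

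Besides Msi2, the genes with a higher response in tetO-Msi2 than in KH2 cells were 4 immediate early genes. These genes encode transcription factors and regulators that are transcribed within minutes of growth factor signalling or handling. Fos (ENSMUSG00000021250, chr12:86814840-86818223, plus strand), a subunit of AP-1, was at 9.44 and 19.5 RPKM in tetO-Msi2 cells and at 28.2 and 20.3 RPKM in KH2 cells. Egr1, a zinc finger transcription factor, was at 14.7 and 30.6 RPKM in tetO-Msi2 cells and at 22.6 and 16.8 RPKM in KH2 cells. Both genes started lower in tetO-Msi2 than in KH2 cells, and with Dox Fos was at a like level in both lines while Egr1 was higher in tetO-Msi2 cells. The log2 changes in tetO-Msi2 cells were 1.02 for Fos (SE 0.22, adjusted p = 0.00586) and 1.03 for Egr1 (SE 0.22, adjusted p = 0.00351), and those in KH2 cells −0.43 and −0.38. Ier2 (chr8:87185230-87186751, minus strand), a small nuclear regulator, was at 4.21 and 9.93 RPKM in tetO-Msi2 cells against 10.04 and 6.13 RPKM in KH2 cells, with log2 changes of 1.21 (SE 0.25, adjusted p = 0.00205) and −0.67. The level of Junb (chr8:87500811-87502617, minus strand), another AP-1 subunit, was 1.36 and 2.8 RPKM in tetO-Msi2 cells and 5.56 and 3.12 RPKM in KH2 cells. Its change of 1.01 in tetO-Msi2 cells missed the threshold (SE 0.28, adjusted p = 0.0905), but its response differed between the lines by 1.80 (SE 0.38, adjusted p = 0.00834). The differences in response were 1.45 for Fos (SE 0.31, adjusted p = 0.009), 1.41 for Egr1 (SE 0.31, adjusted p = 0.0108) and 1.88 for Ier2 (SE 0.34, adjusted p = 0.000305).

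The rest of the immediate early list did not follow these 4 genes. Of 28 members tested, 3 passed the test higher in tetO-Msi2 cells and none lower, 6 higher and 3 lower at an unadjusted p under 0.05, and the median of the 19 members over the level filter was 0.04 in tetO-Msi2 cells and −0.10 in KH2 cells. Jun was at 50.05 and 57.4 RPKM (log2 change 0.17, adjusted p = 1) and Jund at 98.7 and 104 RPKM (0.04, adjusted p = 1). The untreated tetO-Msi2 library was the lowest of the 3 untreated E12.5 lines for Fos, Egr1, Ier2 and Junb, with tetO-Msi1 cells at 42.6, 41.2, 13.48 and 7.22 RPKM without Dox. In tetO-Msi1 cells at E12.5 the RPKM of all 4 was lower with Dox, by 0.61, 0.49, 0.83 and 0.71 on the log2 scale. At E13.5 the values were −0.42, 0.71, 0.32 and 0.32. For Egr1, Ier2 and Junb the direction thus differed between the stages, and the SEs above do not rest on each gene's own spread. Whether these starting levels play a part in the difference was not tested.

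Cav1 had the largest fall of the genes that passed, and it was one of 2 genes with a lower response than in KH2 cells. Cav1 (ENSMUSG00000007655, chr6:17256335-17291452, plus strand), the coat protein of caveolae, was at 9.44 and 2.21 RPKM in tetO-Msi2 cells, on 254 and 71 reads, and at 14.9 and 12.6 RPKM in KH2 cells. It fell 4.34-fold (log2 change −2.12, SE 0.31, adjusted p = 7.1e-08), against −0.20 in KH2 cells, and the difference was −1.92 (SE 0.41, adjusted p = 0.00834). An annotated antisense gene, Gm15581, overlaps it, and without a stated strand its reads cannot be told apart. The other caveola genes did not follow: of 7 tested only Cav1 passed, with Ehd2 at 4.32 and 4.13 RPKM and Prkcdbp, which encodes cavin-3, at 5.84 and 7.42 RPKM. Gucy1a3 (ENSMUSG00000033910, chr3:81896350-81949799, minus strand), the alpha subunit of the nitric oxide receptor guanylate cyclase, was at 0.684 and 0.215 RPKM in tetO-Msi2 cells (107 and 40 reads) and at 2.57 and 2.97 RPKM in KH2 cells. Its log2 change was −1.70 (SE 0.35, adjusted p = 0.00205), against 0.25 in KH2 cells, and the difference was −1.95 (SE 0.43, adjusted p = 0.0124). The level in tetO-Msi2 cells was below that in KH2 cells even without Dox. These 2 genes carry the pentamers printed above, as do most tested genes.

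The other genes that fell include receptors and adhesion proteins of neural cells. Nrp2 (chr1:62749859-62865269, plus strand), a receptor for semaphorins and VEGF, was at 11.6 and 5.60 RPKM in tetO-Msi2 cells and at 12.52 and 9.22 RPKM in KH2 cells, with a log2 change of −1.08 (SE 0.22, adjusted p = 0.00205) against −0.40. Gfra2 (chr14:71289927-71379645, plus strand), the co-receptor for neurturin, was at 4.86 and 2.09 RPKM, a change of −1.24 (SE 0.28, adjusted p = 0.00863). Nptx1 (chr11:119400033-119409067, minus strand), a secreted pentraxin of synapses, was at 15.9 and 7.67 RPKM, a change of −1.08 (SE 0.23, adjusted p = 0.00255). All 3 were also lower with Dox in KH2 cells, where Gfra2 was at 4.12 and 3.48 RPKM and Nptx1 at 22.4 and 17.6 RPKM, and none passed the test of the difference. Pdgfra, the PDGF receptor that marks oligodendrocyte precursors, was at 2.86 and 1.55 RPKM in tetO-Msi2 cells (−0.91, SE 0.24, adjusted p = 0.0482) and at 7.15 and 5.93 RPKM in KH2 cells. Cntn1, a contactin of axons and glia, was at 5.35 and 2.97 RPKM (−0.88, SE 0.23, adjusted p = 0.045) and at 21.3 and 18.1 RPKM in KH2 cells. In bulk RNA, fewer cells of a type and less RNA per cell cannot be told apart.

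Signalling genes were also among those that fell. Adcy8, an adenylyl cyclase, was at 5.21 and 2.8 RPKM in tetO-Msi2 cells and at 7.10 and 5.12 RPKM in KH2 cells (log2 change −0.93, adjusted p = 0.0204). Prkcq, protein kinase C theta, was at 12.1 and 6.46 RPKM (−0.93, adjusted p = 0.0416), Scube2, a secreted protein of hedgehog signalling, at 3.72 and 1.83 RPKM (−1.05, adjusted p = 0.0228) and the membrane protein gene Myadm at 16.5 and 8.62 RPKM (−0.96, adjusted p = 0.0171). Cables1, a Cdk5-associated protein, was at 2.37 and 1.04 RPKM (−1.22, adjusted p = 0.0235) and Cntnap4, a neurexin-family adhesion protein, at 1.93 and 0.998 RPKM (−0.98, adjusted p = 0.0493). Anks1b, a scaffold protein of synapses, at 29.7 and 16.0 RPKM (−0.92, adjusted p = 0.0284) and Clec3b, which encodes tetranectin, at 43.4 and 23.7 RPKM (−0.90, adjusted p = 0.0395) complete the protein-coding genes that fell and were named after their values were seen. The remaining fall was the pseudogene Gm6166, at 43.4 and 21.8 RPKM (−1.02, adjusted p = 0.00657), whose reads may belong to a related gene.

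Lists of matrix, guidance, ion channel and sterol genes lay below 0 in tetO-Msi2 cells with few or no single members past the test. For lists, the change is the log2 ratio of RPKM plus 0.5, centred on the median of 10155 genes with a mean of at least 1 RPKM, so the background median is 0. Among collagens, laminins and matrix glycoproteins none of 28 tested passed, 7 were lower and none higher at an unadjusted p under 0.05, and 19 of 23 lay below 0, with a median of −0.28 against 0.08 in KH2 cells. Tenascin C (Tnc) was at 31.1 and 18.5 RPKM in tetO-Msi2 and 24.5 and 22.1 RPKM in KH2 cells, a log2 change of −0.78 that missed the threshold (SE 0.22, adjusted p = 0.0945). Versican (Vcan) was at 15.6 and 9.5 RPKM (−0.74, adjusted p = 0.31) and the neurocan gene Ncan at 92.6 and 76.1 RPKM (−0.31, adjusted p = 1). Of 30 axon guidance genes tested Nrp2 alone passed and 5 were lower at an unadjusted p under 0.05, with a median of −0.19 against −0.04 in KH2 cells. Of 29 cadherins and neural adhesion molecules Cntn1 alone passed, again with 5 lower at an unadjusted p under 0.05 and a median of −0.09 against −0.05. Among 24 ion channels and neurotransmitter receptors tested none passed, and 2 were lower and none higher at an unadjusted p under 0.05. Their median was −0.24 against 0.06 in KH2 cells, with 9 of 13 below 0.

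Sterol synthesis had the lowest median of the lists. Of 23 sterol and SREBP2 target genes tested none passed, and 8 were lower and none higher at an unadjusted p under 0.05. In tetO-Msi2 cells 21 of 22 lay below 0, with a median of −0.38. In KH2 cells 17 of 22 lay below 0, with a median of −0.08. Fdps, farnesyl diphosphate synthase, was at 39.2 and 23.5 RPKM in tetO-Msi2 cells and at 32.0 and 26.6 RPKM in KH2 cells (−0.77, SE 0.22, adjusted p = 0.114). Acat2, which makes acetoacetyl-CoA, was at 8.81 and 5.28 RPKM (−0.77, adjusted p = 0.226), and Cyp51, the lanosterol demethylase, at 74.4 and 54.6 RPKM (−0.47, adjusted p = 0.803). The summed level of the list went from 920 to 728 RPKM in tetO-Msi2 cells and from 753 to 692 RPKM in KH2 cells, so the untreated tetO-Msi2 library was the highest of the 4. The median in tetO-Msi1 cells was −0.32 at both stages.

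**Figure D2:**
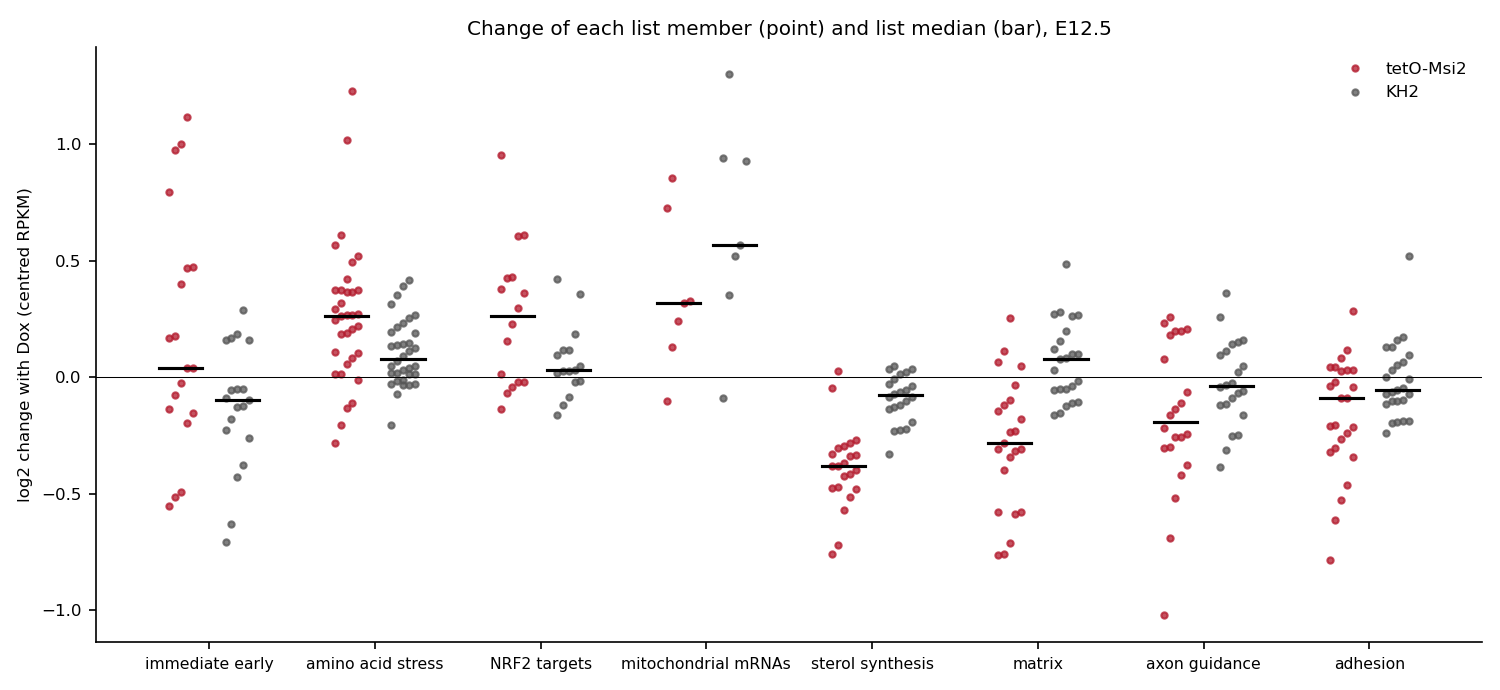
Change with Dox of each member of 8 gene lists in tetO-Msi2 (red) and KH2 (grey) cells at E12.5, as centred log2 ratios of RPKM plus 0.5, with 1 point per gene and a bar at the list's median. Of the sterol genes 21 of 22 lay below 0 in tetO-Msi2 cells (median −0.38) and 17 of 22 in KH2 cells (median −0.08). Mitochondrial mRNAs lay higher in KH2 (median 0.57) than in tetO-Msi2 cells (0.32).

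Of the genes that passed, Atf5 had the largest rise apart from Msi2 and the gene models Gm5239 and Gm12481. Atf5 (ENSMUSG00000038539, chr7:52067627-52072028, minus strand), a transcription factor of the amino acid and mitochondrial stress response, was at 17.9 and 43.5 RPKM in tetO-Msi2 cells and at 5.89 and 7.46 RPKM in KH2 cells. It rose 2.38-fold (log2 change 1.25, SE 0.22, adjusted p = 8.34e-05), with 0.38 in KH2 cells, and the difference did not pass. In tetO-Msi1 cells at E12.5 it was at 6.07 and 17.5 RPKM. The annotated genes Il4i1 and Nup62 overlap it on the opposite strand. Of the 38 genes tested in the list of ATF4, CHOP and amino acid stress response genes Atf5 alone passed. At an unadjusted p under 0.05, 8 were higher and 1 lower. In tetO-Msi2 cells 29 of 34 lay above 0, with a median of 0.26, and in KH2 cells 26 of 34, with a median of 0.08. Asns, asparagine synthetase, was at 53.5 and 71.0 RPKM in tetO-Msi2 and 9.24 and 10.3 RPKM in KH2 cells, and Atf4, the central factor of the pathway, at 77.4 and 90.2 RPKM and at 31.7 and 31.5 RPKM. Nupr1, a small stress-induced chromatin protein, was at 7.16 and 15.3 RPKM in tetO-Msi2 cells (1.07, SE 0.33, adjusted p = 0.233). The starting level of the list differed between the lines: without Dox 30 of 34 members were higher in tetO-Msi2 than in KH2 cells, with a median log2 ratio of 1.02 against −0.03 over all genes. The summed level was 1447 and 1785 RPKM in tetO-Msi2 cells, 865 and 863 RPKM in KH2 cells, and 883 and 950 RPKM in tetO-Msi1 cells at E12.5, where the list's median was 0.20, and it was −0.55 at E13.5.

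Other genes that rose include several enzymes and carriers. Car2 (chr3:14886426-14900769, plus strand), carbonic anhydrase II of oligodendrocytes and other glia, was at 17.3 and 35.4 RPKM in tetO-Msi2 cells and at 19.4 and 20.9 RPKM in KH2 cells (log2 change 1.00, SE 0.23, adjusted p = 0.00803). Odc1 (chr12:17551679-17558308, plus strand), ornithine decarboxylase of polyamine synthesis, was at 3.10 and 6.86 RPKM and at 8.26 and 6.85 RPKM in KH2 cells (1.12, SE 0.25, adjusted p = 0.00586), from a lower start in tetO-Msi2 cells. Npl (chr1:155350146-155396844, minus strand), an enzyme of sialic acid breakdown, was at 4.89 and 10.5 RPKM and at 7.30 and 7.97 RPKM in KH2 cells (1.08, SE 0.25, adjusted p = 0.0108). Apoe (chr7:20281458-20284515, minus strand), the lipid carrier of astrocytes, was at 26.1 and 49.9 RPKM (0.91, SE 0.21, adjusted p = 0.00863) and at 76.1 and 81.5 RPKM in KH2 cells, so its induced level was still below both KH2 libraries, and most of the other astrocyte markers were lower with Dox. None of these 4 passed the test of the difference. Slc25a18, a mitochondrial glutamate carrier, was at 38.8 and 78.3 RPKM (0.99, adjusted p = 0.00657), the pyrophosphatase gene Ppa1 at 11.3 and 22.4 RPKM (0.96, adjusted p = 0.0266) and Txlnb at 2.93 and 5.98 RPKM (1.00, adjusted p = 0.0171), all 3 named after their values were seen. In KH2 cells Slc25a18 was at 53.8 and 51.2 RPKM and Ppa1 at 13.497 and 13.1 RPKM.

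Antioxidant targets of NRF2 had a median of 0.26 in tetO-Msi2 and 0.03 in KH2 cells over 16 genes, with none of 17 past the test and 4 higher at an unadjusted p under 0.05. Gclc, the catalytic subunit of glutathione synthesis, was at 7.44 and 11.9 RPKM (log2 change 0.64, adjusted p = 0.417) and Prdx1, a peroxiredoxin, at 71.2 and 111 RPKM (0.61, adjusted p = 0.44). Of 40 cytosolic ribosomal protein genes tested 1 passed, Rplp2, at 74.2 and 172 RPKM in tetO-Msi2 and 93.0 and 99.3 RPKM in KH2 cells (1.18, SE 0.22, adjusted p = 0.00037), with a list median of 0.05. Rpl30 was at 290 and 509 RPKM (0.78, SE 0.22, adjusted p = 0.0905). In KH2 cells the same gene was at 0.417 and 0.0595 RPKM, and ribosomal protein genes have many processed copies among which reads can be split, so both values are uncertain. Other rises with uncertain reads or annotation were Gm5239 (25 and 172 reads in tetO-Msi2 cells, log2 change 2.50, SE 0.50, adjusted p = 0.00154), the pseudogene Gm12481 at 7.22 and 19.6 RPKM (1.42, adjusted p = 0.0105) and a gene listed only as ENSMUSG00000003759 at 1.75 and 3.63 RPKM (1.02, adjusted p = 0.0225).

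The mRNAs that passed the test in both lines were higher with Dox and were encoded by the mitochondrial genome. Cytochrome b (mt-Cytb, chrM:14145-15288) was at 1383 and 2553 RPKM in tetO-Msi2 cells and at 1202 and 2233 RPKM in KH2 cells. The log2 changes were 0.86 (SE 0.18, adjusted p = 0.00277) and 0.93 (SE 0.18, adjusted p = 0.00159). The complex I subunit mt-Nd2 (chrM:3914-4951) was at 654 and 1105 RPKM in tetO-Msi2 cells and at 438 and 1054 RPKM in KH2 cells, with changes of 0.73 (SE 0.19, adjusted p = 0.0493) and 1.31 (SE 0.19, adjusted p = 2.02e-07). The third call in KH2 cells, mt-Nd4, was at 247 and 462 RPKM there (0.94, SE 0.20, adjusted p = 0.00682) and at 283 and 362 RPKM in tetO-Msi2 cells (0.33, adjusted p = 1). These 2 shared genes are 5.71% of the 35 calls in tetO-Msi2 and 66.7% of the 3 in KH2 cells. The 7 mitochondrial mRNAs over the filter had a median of 0.32 in tetO-Msi2, 0.57 in KH2 and 0.33 in tetO-Msi1 cells at E12.5, but −0.01 in tetO-Msi1 cells at E13.5. Not all of them were higher with Dox: mt-Co1, a complex IV subunit, was at 2306 and 2189 RPKM in tetO-Msi2 and at 2376 and 2179 RPKM in KH2 cells. Subunits of the respiratory chain from nuclear genes had a median of 0.08 in tetO-Msi2 and 0.00 in KH2 cells, with none of 45 past the test.

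**Figure D3:**
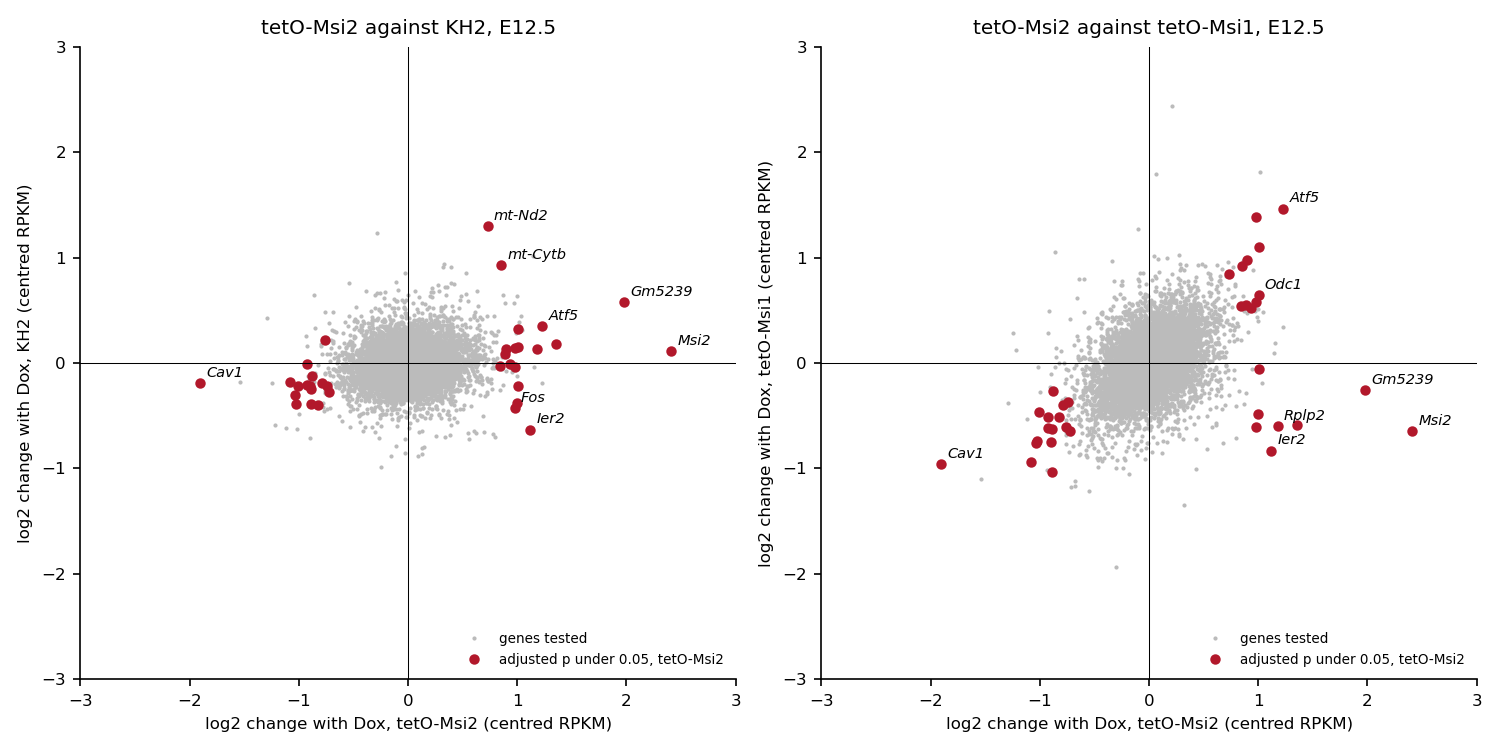
Centred log2 change with Dox in tetO-Msi2 cells (horizontal axis) against that in KH2 cells (left) and tetO-Msi1 cells (right) at E12.5, with 1 grey point for each tested gene over the level filter and red points for the genes past an adjusted p of 0.05 in tetO-Msi2 cells. Most red points other than mt-Nd2 and mt-Cytb lie near 0 on the KH2 axis, where the falls have a median of −0.22, whereas on the tetO-Msi1 axis the falls have a median of −0.62. The falls lie below 0 in 15 of 16 genes in KH2 and in 16 of 16 in tetO-Msi1 cells.

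Outside the mitochondrial mRNAs the genes that passed changed less in the KH2 pair. They were chosen for a large change in tetO-Msi2 cells, so a smaller change in any other pair is expected from the choice alone. Of the 34 genes past the test other than Msi2, 26 (76.5%) had the same direction in KH2 cells, where 53.7% of all genes had the same direction in both pairs. The falls shared it in 15 of 16 genes, with a median in KH2 cells of −0.22, and the rises in 11 of 18, with a median of 0.13. A change of at least 1.5-fold in KH2 cells in the same direction was seen for 2 of the 34, mt-Cytb and mt-Nd2, and in the opposite direction for 1. By fold alone, 33 of 10155 genes (0.325%) differed at least 2-fold in tetO-Msi2 cells and 8 (0.0788%) in KH2 cells. At 1.5-fold the counts were 306 (3.01%) and 97 (0.955%), and of the 305 other than Msi2, 10 had at least a 1.5-fold change in the same direction in KH2 cells and 14 in the opposite one. The 10 shared genes are 3.28% of those in tetO-Msi2 and 10.3% of those in KH2 cells. The 1 gene past 2-fold in the same direction in both pairs was Bloc1s2, a subunit of the lysosome positioning complex BORC, on 13 and 51 reads in tetO-Msi2 and 14 and 65 in KH2 cells, which did not pass the test (log2 change 1.69, adjusted p = 0.503). Across 10155 genes the Spearman correlation of the 2 responses was 0.112, a description over genes that are not independent. The KH2 responses were also tighter, with an SD of the log2 change of 0.175 across genes against 0.251 in tetO-Msi2 cells.

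The tetO-Msi1 pair, which shares no library with either, had larger changes than KH2 in the genes that fell, and for the rises its direction was mixed. At E12.5 the correlation across genes was 0.399 with tetO-Msi2 and 0.0890 with KH2 cells. Of the 34 genes 27 (79.4%) had the same direction in tetO-Msi1 cells at E12.5 and 30 (88.2%) at E13.5, against 64.4% and 60.6% of all genes. The falls shared it in 16 of 16 genes at E12.5 but the rises in 11 of 18 (61.1%), as in KH2 cells, with 4 of them at least 1.5-fold the opposite way. By the 2-fold limit without a test, 18 of 32 genes (56.2%) had the same direction in tetO-Msi1 cells at E12.5 and 20 of 32 (62.5%) in KH2 cells. Of the 34 genes 17 had at least a 1.5-fold change in that direction at each stage, where 3.38% and 6.65% of all genes changed that much in either direction. The falls had a median of −0.62 in tetO-Msi1 cells at E12.5, with Cav1 at 13.1 and 6.42 RPKM, Gucy1a3 at 3.28 and 1.95 RPKM and Nrp2 at 16.8 and 9.78 RPKM. Among the rises Car2 was at 12.9 and 34.3 RPKM and Apoe at 114 and 223 RPKM in tetO-Msi1 cells, whereas Rplp2 was at 96.8 and 63.2 RPKM, the other way from tetO-Msi2 cells. The tetO-Msi1 libraries are also those that set the spread of the test. The Msi1/Msi2 floxed lines were treated with tamoxifen in place of Dox, and for a shorter labelled time than the 72 h of the Dox pairs. There 14 of the 34 (41.2%) had the same direction in the Cre-carrying line C4 and 21 (61.8%) in the Cre-less line C1, against 48.1% and 50.3% of all genes.

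**Figure D4:**
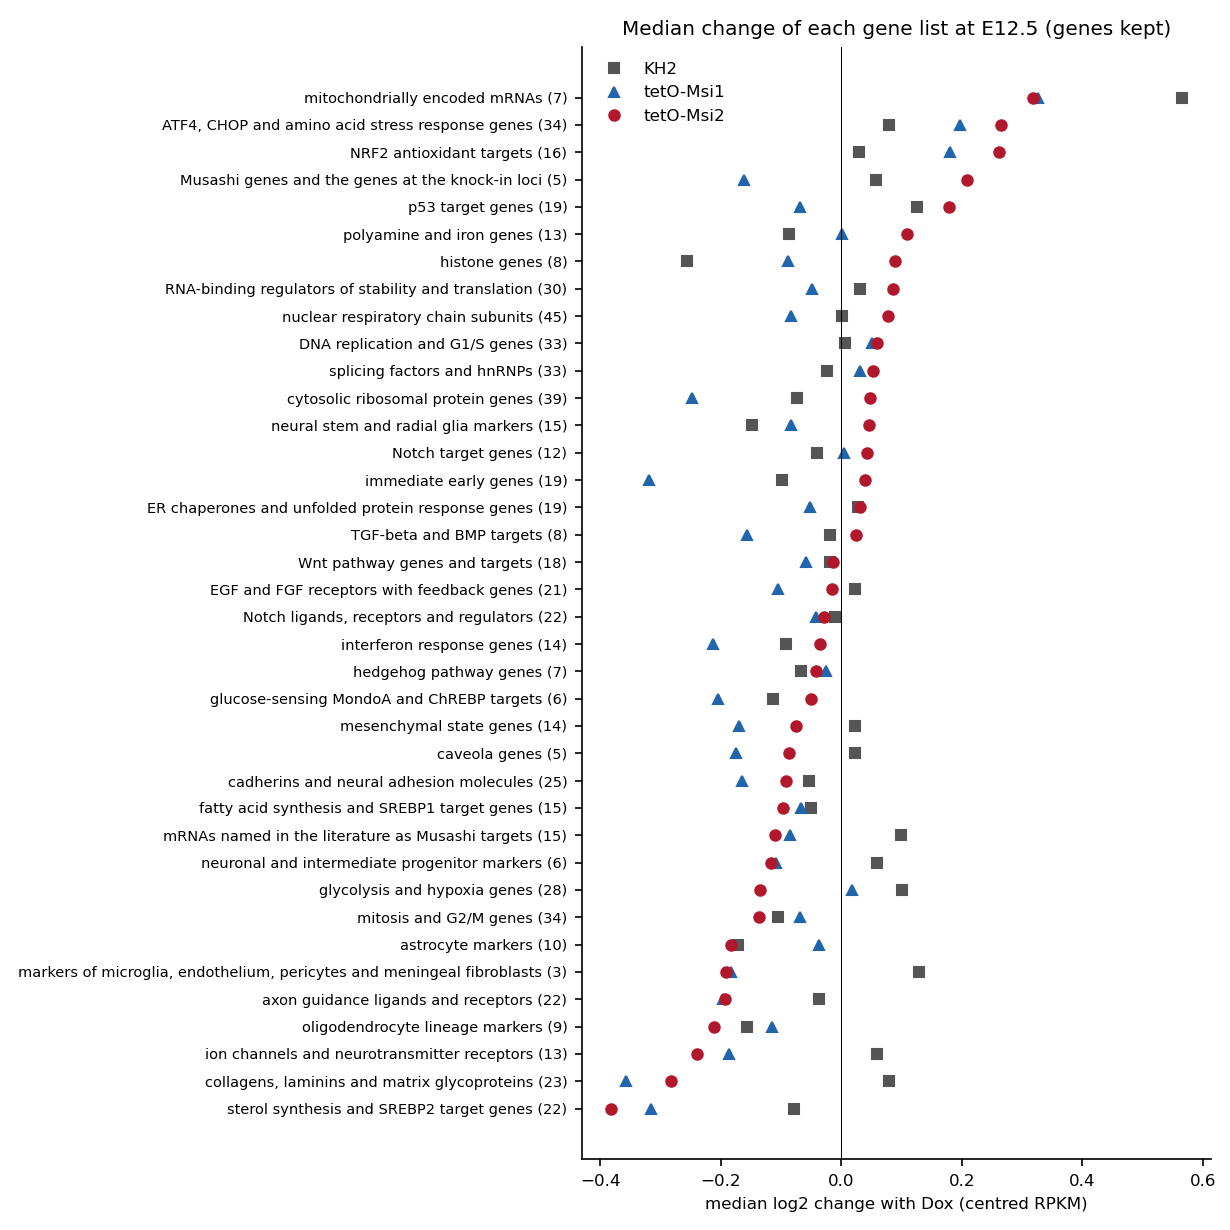
Median centred log2 change with Dox of each gene list at E12.5 in tetO-Msi2 (red circles), KH2 (grey squares) and tetO-Msi1 (blue triangles) cells, with the number of genes over the level filter in parentheses and no error bars because each pair is 1 library per condition. Sterol genes have the lowest median in tetO-Msi2 cells (−0.38) and mitochondrially encoded mRNAs the highest (0.32), and the latter are higher still in KH2 cells (0.57).

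Stem cell and Notch lists had medians near 0, and lineage marker lists had medians below 0 in tetO-Msi2 cells. None of 15 neural stem and radial glia markers passed, and their median was 0.05 in tetO-Msi2 and −0.15 in KH2 cells. The Notch effector Hes5 was at 79.7 and 113 RPKM in tetO-Msi2 cells and at 124 and 105 RPKM in KH2 cells (log2 change 0.47, SE 0.22, adjusted p = 0.838), and the glial glutamate transporter gene Slc1a3 at 163 and 215 RPKM (0.38, SE 0.20, adjusted p = 0.972). None of 25 Notch ligands, receptors and regulators passed, with a median of −0.03, and among the ligands Dll1 was at 40.2 and 40.4 RPKM and Jag1 at 1.43 and 1.57 RPKM. Of 17 mRNAs named in the literature as Musashi targets none passed, 1 was higher and 3 lower at an unadjusted p under 0.05, and the median was −0.11 against 0.10 in KH2 cells. In that list Numb, an inhibitor of Notch signalling, was at 3.61 and 3.31 RPKM and the cyclin-dependent kinase inhibitor gene Cdkn1a at 82.5 and 119 RPKM (0.50, SE 0.22, adjusted p = 0.761). Mitosis genes had a median of −0.14 in tetO-Msi2 and −0.11 in KH2 cells, and splicing factors one of 0.05 and −0.02. Of 11 astrocyte markers tested Apoe alone passed, higher, while 8 of the 10 over the level filter lay below 0, with a median of −0.18 in tetO-Msi2 and −0.17 in KH2 cells. The 2 above 0 were both at least 1.5-fold higher, and none of the others was 1.5-fold lower. S100b had a log2 change of 1.05 in tetO-Msi2 cells and did not pass. Among the astrocyte markers below 0, Sparcl1, a matrix protein of astrocytes, was at 156 and 136 RPKM and the glycolytic enzyme gene Aldoc at 135 and 113 RPKM. Of 11 oligodendrocyte lineage genes tested Car2 rose and Pdgfra fell, and the list's median was −0.21 in tetO-Msi2 and −0.16 in KH2 cells, with Olig1, a lineage transcription factor, at 154 and 171 RPKM. None of 17 neuronal and intermediate progenitor markers passed, and the 6 over the filter had a median of −0.12 in tetO-Msi2 and 0.06 in KH2 cells.

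The change with Dox had a weak relation to Musashi pentamers in the 3′ UTR in all 3 lines, KH2 included. The 9609 genes with a 3′ UTR of at least 50 nt were split by the number of ATAGT or GTAGT pentamers per kb on the transcript strand. In tetO-Msi2 cells the 3264 genes without one had a median of 0.00 and the 1586 genes with the highest density, the top of 4 groups of the others, one of 0.02. In KH2 cells, which have no Musashi cDNA, the same groups had medians of −0.03 and 0.02, and in tetO-Msi1 cells −0.03 and 0.05. The Spearman correlation of density with change across genes was 0.0341 in tetO-Msi2, 0.136 in KH2 and 0.110 in tetO-Msi1 cells. With the looser pentamers NTAGN the correlations were 0.0998, 0.101 and 0.158, and the tetO-Msi2 medians ran from −0.02 in the group of lowest density to 0.03 in that of the highest, against −0.02 and 0.02 in KH2 cells. The KH2 change also had a correlation of 0.173 with the length of the 3′ UTR and −0.207 with its GC content (−0.0499 and 0.0276 in tetO-Msi2 cells), and their part was not tested. Of the genes that passed, 9 of 14 with a 3′ UTR among the rises (64.3%) and 8 of 15 among the falls (53.3%) held a pentamer, against 65.1% of all tested genes.

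**Figure D5:**
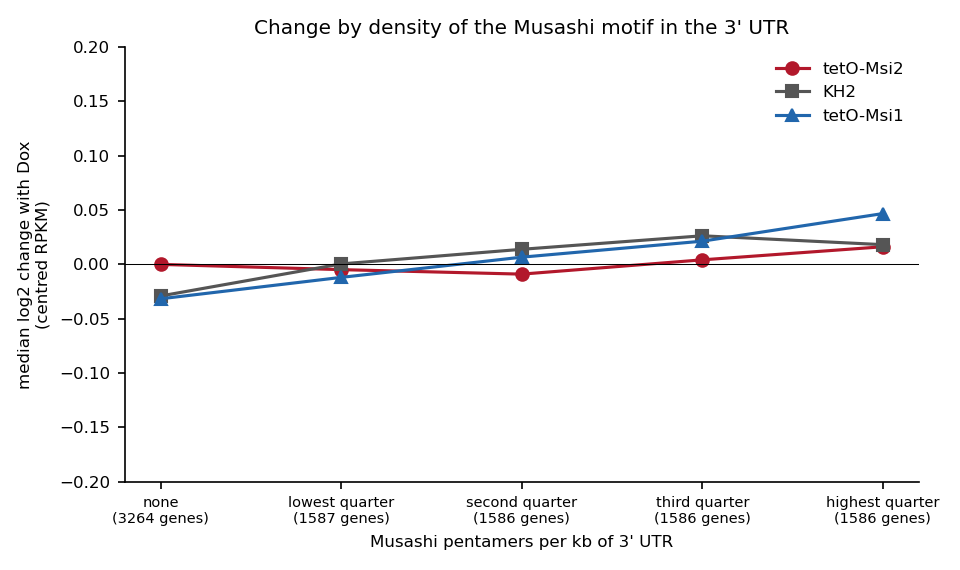
Median centred log2 change with Dox at E12.5 (vertical axis) of genes grouped by the density of ATAGT and GTAGT in the 3′ UTR (horizontal axis, from no pentamer to the densest group) in tetO-Msi2 (red), KH2 (grey) and tetO-Msi1 (blue) cells, with no error bars because genes are not replicates. All medians lie between −0.03 and 0.05, and the tetO-Msi2 line is the flattest of the 3 with these pentamers, which does not hold with NTAGN.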

How the data were processed

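Poly(A) RNA of cultured NSCs was sequenced as paired-end RNA-Seq. The authors deposited, per library, a raw read count, a counted length and an RPKM value for each of 22623 Ensembl genes (build mm9, TopHat and Bowtie in the submitters' processing notes; annotation version, settings and strand are not given in the sources used here). The deposited count of the 4 libraries is 15.3 to 15.8% of the reads behind the deposited RPKM, so RPKM was used for levels and counts for tests. That share was 28.2 to 30.0% in the tetO-Msi1 libraries at E13.5, so RPKM levels are not on the same scale at both stages. The deposited Ribo-Seq tables were not used. Nothing states that libraries came from separate cultures. The p-values rest only on the spread between the tetO-Msi1 responses at E12.5 and E13.5, which also holds any difference between the stages. Precision is limited by the 12901123 to 22248145 counted reads per library, and 95% counting intervals cover counting error only.

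Counts were tested with edgeR 4.0.16 (R 4.3.3, TMM, glmQLFit and glmQLFTest, two-sided) on 8 libraries, the KH2, tetO-Msi1 and tetO-Msi2 pairs at E12.5 and the tetO-Msi1 pair at E13.5 (2 technical replicates of its untreated library summed), with a baseline for each line and stage and 1 Dox effect per line. Genes needed 1 CPM in 2 libraries, and p-values were adjusted over the 12167 genes tested. List and motif values are log2 ratios of RPKM plus 0.5, centred on the median of 10155 genes with a mean of at least 1 RPKM over both pairs. The median before centring was 0.03 in tetO-Msi2 and −0.04 in KH2 cells. The test was also run on counts simulated with 1 spread common to all genes. That run cannot show how the test does where genes or lines vary unlike each other. Gene positions, overlaps and 3′ UTRs are from GENCODE M1 on NCBIM37.

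Named genes are Msi2, Msi1 and Col1a1, up to 12 called genes with the largest rise and fall, up to 5 per direction in KH2 and in the difference, called, 1.5-fold changed or most abundant members of 39 lists, and genes changed 2-fold alike in both pairs, all on at least 20 reads. The members and lists were chosen with earlier results of these data known. Alternatives were RLE factors, library sizes from the reads behind RPKM, no filter or CPM of 5, DESeq2 1.42.0, E12.5 libraries only, single technical replicates, and for RPKM the pseudocount, filter, scaling and fold limit. Scripts ran in Python 3.11.15 with pandas 2.3.3. One gene that passed the test and single values of another are not reported here.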

Additional observations from a re-analysis of the deposited data

Results flagged for a closer look

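The response to Dox differed between tetO-Msi2 and KH2 cells for 7 genes by edgeR's test of the difference itself with Benjamini-Hochberg adjustment, on 1 library per condition. On the log2 scale, as the response in tetO-Msi2 minus that in KH2 cells, the differences were 2.32 for Msi2, −1.92 for Cav1 and −1.95 for Gucy1a3. For the immediate early genes they were 1.45 for Fos, 1.41 for Egr1, 1.88 for Ier2 and 1.80 for Junb. The directions of the 2 responses were opposite for these 4 genes and for Gucy1a3, and for Cav1 and Msi2 the same. No group has the 4 samples that a check for outlying samples needs.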

How the results depend on the processing

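No paired analysis was possible because each condition had 1 library, so there is no replicate number to block on beyond the baseline that the test already gives each line and stage. RLE factors, a CPM minimum of 5, no filter, and either technical replicate alone left the tetO-Msi2 count of calls between 30 and 36, and library sizes from the reads behind RPKM gave 25 (17 higher and 8 lower, against 19 and 16). Under DESeq2 the calls were 2 in tetO-Msi2 cells (188 at an unadjusted p under 0.05), 0 in KH2 cells and 0 for the difference. With E12.5 libraries only, KH2 and tetO-Msi1 cells were given 1 shared Dox effect, and the spread came from the gap between their responses. The calls were then 85 in tetO-Msi2 cells (44 higher and 41 lower, all 35 among them) and 33 for the shared effect. For tetO-Msi2 cells against the shared effect there were 7, and 6 of these were also called against KH2 cells alone. Gucy1a3 lost its call there, where the comparison also held the tetO-Msi1 pair. With library sizes from the reads behind RPKM, KH2 had 1 call, and Pdgfra, Cntn1, mt-Cytb, mt-Nd2, Prkcq, Cntnap4, Cables1, Scube2, Anks1b and Clec3b lost theirs in tetO-Msi2 cells. Pdgfra, Cntn1, Prkcq, Cntnap4 and Clec3b lost theirs with no filter, Gm5239 with a CPM minimum of 5, and Pdgfra and Cntn1 with the second technical replicate alone. Counts of 2-fold changes in tetO-Msi2 and KH2 cells were 62 and 21 with a pseudocount of 0.1, 11 and 3 with a pseudocount of 2, 14 and 3 with a mean of at least 5 RPKM, and 306 and 97 at 1.5-fold. In KH2 cells there were 18 with no filter and 2 with at least 50 reads. The deposited scaling moved the tetO-Msi2 split from 20 higher and 13 lower to 27 and 10. Lists with a median of at least 0.2 in size numbered 8, and 5 with a pseudocount of 2. The median of the genes with the highest motif density went from 0.016 to 0.032 with NTAGN pentamers. RLE factors turned the direction of no named gene. The deposited scaling turned 11 of 213, none of them called, from just below 0 to a log2 change of 0.0036 for Mtap2, 0.0070 for Dll1, 0.0073 for Pdia3, 0.0081 for Sqstm1, 0.0082 for Cdh20, 0.0098 for Rpl4, 0.010 for Lrig1, 0.011 for Canx, 0.012 for Pkm2, 0.015 for Hnrnpl and 0.020 for Ctnnb1. The calls rest on 1 library per condition, and for genes under 100 reads, such as Gucy1a3 with 40 in the induced library, counting error adds to that.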
